A study of Mus musculus with 23 samples.

Results

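The E protein genes Tcf3, Tcf12 and Tcf4 and the genes of their antagonists, Id1, Id2 and Id3, were followed across 23 mouse RNA-seq libraries. The members were the 6 rows with these symbols out of 24475 genes, taken by name but with earlier results of these data known (gene identifiers 21423, 21406, 21413, 15901, 15902 and 15903 in the order above). The control group was 6 thymus libraries of normal C57BL/6 mice. The other libraries came from whole spleens of BALB/c Rag2-/-Il2rg-/- mice with T-ALL, acute leukemia of the T lineage, that arose from a newborn donor thymus lobe placed under the kidney capsule. The donor was wild type for 14 libraries (WT T-ALL, donors B6.Ly5.1) and a Notch3 knockout for 3 (Notch3 KO T-ALL), in which a reporter gene had been inserted into the first coding exon. Each library is 1 mouse and is named by the number in its label. Hosts without Rag2 and Il2rg have no lymphocytes of their own but keep erythroid, myeloid and stromal cells, so a spleen library holds host RNA beside that of the leukemic cells. Tissue, the strain of the mouse and disease part with the groups and cannot be told apart. The age of the control mice is not given in the sources used here.

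E proteins are basic helix-loop-helix transcription factors that bind the E-box motif as dimers, and Id proteins are helix-loop-helix proteins without a basic region that pair with them and keep them off DNA. In developing thymocytes E proteins turn on recombination and pre-T-cell receptor genes and hold cells at checkpoints, and receptor signaling through Egr factors raises Id3 to relieve that hold. In T-ALL the same E proteins are partners of TAL1 or LYL1, which sit on DNA together with LMO and GATA factors.

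The promoters of Id3 and Id2 are shown because these are the most abundant of the 3 Id transcripts and Id2 exceeded Id3 in 8 of 14 WT T-ALL libraries and in no thymus library. Both are the 250 bases before the RefSeq transcript start on GRCm38.p6, with the E-box CANNTG in capitals. The Id3 window is chr4:136143572-136143821 on the plus strand and the Id2 window is chr12:25096093-25096342 on the minus strand.
Id3: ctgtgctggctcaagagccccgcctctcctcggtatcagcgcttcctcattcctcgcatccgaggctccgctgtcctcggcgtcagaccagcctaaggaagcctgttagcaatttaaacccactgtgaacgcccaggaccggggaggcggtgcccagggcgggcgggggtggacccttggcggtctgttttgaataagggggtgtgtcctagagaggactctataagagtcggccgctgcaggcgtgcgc
Id2: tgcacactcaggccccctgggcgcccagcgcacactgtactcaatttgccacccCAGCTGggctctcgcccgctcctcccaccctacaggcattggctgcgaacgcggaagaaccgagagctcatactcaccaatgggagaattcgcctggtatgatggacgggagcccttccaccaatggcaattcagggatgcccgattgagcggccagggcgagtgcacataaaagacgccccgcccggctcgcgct
The Id2 window holds 1 E-box, the palindrome CAGCTG, whose first base lies 196 bases before the start, and the Id3 window holds none. Of 32534 promoter windows of this length, 66.2% hold CANNTG and 13.05% hold CAGCTG. The motif GCGNGGGCG, searched on both strands for Egr factors, is in 4.74% of all windows and in neither of these. A match is a description of the letters in this window only. Both windows lie inside the longer gene extents of GENCODE M21. RefSeq promoter entries were found for 4 of the 6 genes, Tcf3, Tcf12, Id2 and Id3.

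All values are on the deposited log2(scaled RPKM + 1) scale, where RPKM is per transcript length and scaled within each library, so a level can be compared between genes and a difference understates the fold change of low genes. Libraries fell into a set A of 9 and a set B of 14 by the level of Sco2 (2.30 to 3.92 against 0.00 to 1.00), a split that the labels do not give. Set A holds thymus 5 and 6, WT T-ALL 3, 4, 5 and 7 and every Notch3 KO T-ALL library. Thymus libraries held 4.48 to 126.2 scaled RPKM of 10 summed erythroid markers, WT T-ALL libraries 316.0 to 24750.1 and Notch3 KO T-ALL libraries 10041.1 to 34796.6, and 6 of the 10 (Epor, Klf1, Slc4a1 and Ermap among them) stayed below 1 in every thymus library. Summed neutrophil markers (7 genes) stood apart in WT T-ALL 110 (84321.0) and WT T-ALL 108 (17413.2), against 635.8 to 5696.4 in the other WT T-ALL libraries, 57.1 to 529.8 in thymus and 201.8 to 7564.4 in Notch3 KO T-ALL. All groups carried the T cell markers (7 genes), with sums of 2586.4 to 3141.5 for thymus, 1393.7 to 3199.8 for WT T-ALL and 1626.2 to 2364.3 for Notch3 KO T-ALL. The targeted gene Notch3 measured 3.22, 2.59 and 3.74 in the Notch3 KO libraries. Its range was 3.17 to 5.78 over the WT T-ALL libraries and 2.62 to 4.29 over thymus. Against thymus it differed by -0.12 (limma adjusted p = 0.848), so these values alone do not check the knockout label. Against WT T-ALL it was lower by -1.56 ± 0.41 (SE; exact permutation test, p = 0.00441), while the limma adjusted p was 0.101. That p passed with 3 groups in the fit (0.0411), without WT T-ALL 110 (-1.68, 0.0288) and without WT T-ALL 108 and 110 (-1.74, 0.0124), and a value per gene does not separate exons before and after the insertion. In bulk samples, fewer cells of a type and less RNA per cell cannot be told apart.

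**Figure D1:**
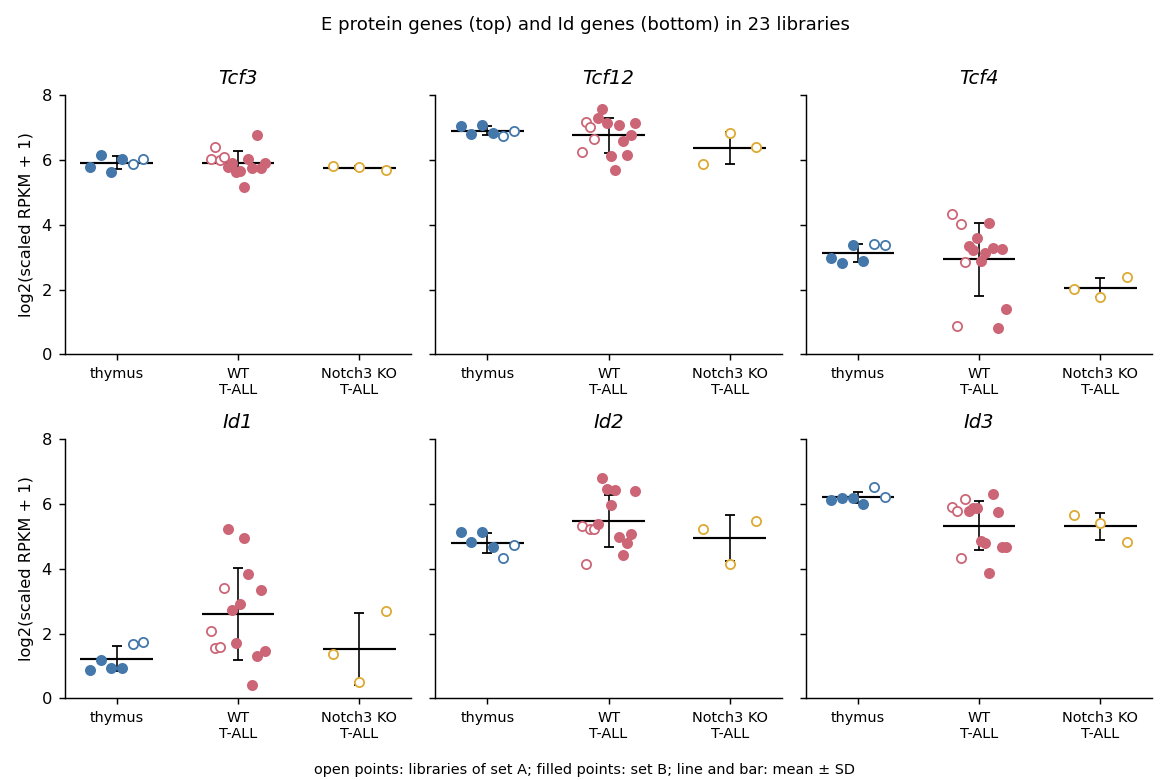
Each point is 1 library (open, set A; filled, set B); the vertical axis is log2(scaled RPKM + 1), and lines with bars give the mean ± SD of 6 thymus, 14 WT T-ALL and 3 Notch3 KO T-ALL libraries. Thymus values of each gene lie close together, Id3 lies above most T-ALL libraries, and Id1 and Tcf4 scatter widely in WT T-ALL.

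In thymus the 6 genes kept a near fixed order. Tcf12 (HEB, chromosome 9, 71842688 to 72111871) was highest at 6.90 ± 0.14 (SD, n = 6), followed by Id3 (chromosome 4, 136143497 to 136145755) at 6.20 ± 0.17 and Tcf3 (E2A, chromosome 10, 80409514 to 80433647) at 5.92 ± 0.19. Id2 (chromosome 12, 25093799 to 25097140) reached 4.81 ± 0.31, Tcf4 (E2-2, chromosome 18, 69343356 to 69689079) 3.14 ± 0.27 and Id1 (chromosome 2, 152736251 to 152737410) 1.22 ± 0.39. All 6 are protein-coding in the GENCODE M21 annotation of GRCm38.p6, and Tcf12 overlaps 4 annotated genes on the opposite strand, whose reads cannot be set apart where strand was not used in counting. Tcf12 also overlaps 7 annotated genes on its own strand and Tcf4 1, which strand would not set apart. Id3 and Tcf3 were the only neighbours in that order whose thymus ranges overlapped, and Id3 was still the higher of the pair in 5 of 6 libraries. In WT T-ALL the order of means was Tcf12, Tcf3, Id2, Id3, Tcf4 and Id1, and every pair of neighbours overlapped. In Notch3 KO T-ALL it was Tcf12, Tcf3, Id3, Id2, Tcf4 and Id1, with overlap between Id3 and Id2 and between Tcf4 and Id1.

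The E protein genes did not pass the test between WT T-ALL and thymus. Of the 6 members, 2 passed at a limma adjusted p under 0.05 (1 higher, Id1, and 1 lower, Id3), where 51.6% of the 11919 genes tested passed (29.3% higher and 22.3% lower). Tcf3, whose products E12 and E47 are the main E proteins of lymphocyte progenitors and are not separated by a value per gene, ran from 5.63 to 6.14 in thymus (median 5.96) and from 5.17 to 6.76 in WT T-ALL (median 5.91). The ranges overlapped, with 11 of 14 WT T-ALL libraries inside the thymus range. The difference was 0.00 ± 0.16 (SE), with a 95% interval of -0.32 to 0.32 (limma adjusted p = 0.997).

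Tcf12, the partner of E2A in thymocytes, ran from 6.75 to 7.08 in thymus (median 6.86) and from 5.70 to 7.58 in WT T-ALL (median 6.91). Its WT T-ALL values spread to both sides of the thymus range, with 5 libraries above it and 6 below. The difference of -0.13 ± 0.22 had an interval of -0.58 to 0.32 (limma adjusted p = 0.629). Its sign and call moved with the processing. With equal sums per library, taken without mitochondrial and hemoglobin genes, it was -0.55 (limma adjusted p = 0.0476), where the median of all genes was -0.27. With the neutrophil score as a covariate it was 0.56 (0.0806). The lowest value, 5.70, was that of WT T-ALL 110, and the library with the next highest neutrophil markers, WT T-ALL 108, gave 6.12.

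Tcf4, the E protein that specifies plasmacytoid dendritic cells and is low in most T cells, ran from 2.84 to 3.41 in thymus (median 3.18) and from 0.83 to 4.34 in WT T-ALL (median 3.24). In 3 WT T-ALL libraries it was low, at 0.88 in WT T-ALL 4, 0.83 in WT T-ALL 126 and 1.40 in WT T-ALL 202, and the next lowest was 2.86. On the linear scale these 3 hold 0.841, 0.779 and 1.64 scaled RPKM against a thymus mean of 7.98 ± 1.68. They come from both library sets. The group difference was -0.21 ± 0.42, with an interval of -1.07 to 0.66 (limma adjusted p = 0.697). Over all 37 alternatives, left-out libraries among them, it ran from -0.58 to -0.045 and was never called (limma adjusted p of 0.227 to 0.927). The 5 plasmacytoid dendritic cell markers summed to 335.2 to 539.1 scaled RPKM in thymus and 1.68 to 136.8 in WT T-ALL, most of it Ccr9, which thymocytes also express, while Cox6a2 and Klk1 stayed below 1 in every thymus library. Their part in the Tcf4 level was not tested.

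Id3, the antagonist that Egr factors raise on receptor signaling, fell. It ran from 5.99 to 6.52 in thymus (median 6.18) and from 3.88 to 6.32 in WT T-ALL (median 5.77). The groups overlapped, but 12 of 14 WT T-ALL libraries lay below every thymus library and none lay above. The difference was -0.87 ± 0.29 (limma adjusted p = 0.0161, exact permutation test p = 0.014), or 73.0 ± 9.41 against 44.4 ± 20.8 scaled RPKM. Leaving out any 1 library kept the call, with adjusted p-values of 0.00826 to 0.0411. Within set A the difference was -0.82 (4 against 2 libraries, exact permutation test p = 0.267, smallest possible 0.0667) and within set B -0.87 (10 against 4, exact permutation test p = 0.04995, limma adjusted p = 0.0622). In the libraries of the replicate block it was -0.89, with a limma adjusted p of 0.174 with the block and 0.142 without it. With the erythroid score as a covariate it was -0.36 (adjusted p = 0.755, range over all alternatives 0.000901 to 0.755) and with the neutrophil score -0.53 (adjusted p = 0.332). The erythroid score did not overlap between thymus (0.34 to 1.81) and WT T-ALL (3.03 to 7.12), so group and score can hardly be separated. B cell markers (6 genes, most of it Cd79b) summed to 17.5 to 23.2 scaled RPKM in thymus. Their sums were lower in both leukemia groups, at 0.52 to 5.80 for wild-type donors and 0.65 to 1.54 for knockout donors. Within WT T-ALL, Id3 had a Pearson r of -0.49 with the log2 sum (n = 14). The part of B cell RNA in the Id3 level was not tested beyond these values.

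Id1, which BMP and TGF-beta signals raise in many tissues, rose. It ran from 0.86 to 1.73 in thymus (median 1.07) and from 0.41 to 5.21 in WT T-ALL (median 2.40). The thymus libraries themselves parted by set, with 1.66 and 1.73 in set A and 0.86 to 1.19 in set B. Of the 14 WT T-ALL libraries 8 lay above every thymus library, led by WT T-ALL 14 (5.21), 110 (4.94) and 111 (3.84), and WT T-ALL 120 lay below all at 0.41. The difference was 1.38 ± 0.55 (limma adjusted p = 0.0395, exact permutation test p = 0.0307), or 1.40 ± 0.67 against 8.78 ± 11.0 scaled RPKM. The call was lost on leaving out thymus 1, 2, 3 or 4 (1.31, 1.38, 1.33 and 1.33) or WT T-ALL 7, 108, 110, 111 or 128 (1.32, 1.36, 1.21, 1.29 and 1.33), with adjusted p-values of 0.0503 to 0.0748. It was also lost without WT T-ALL 108 and 110 together (1.17, adjusted p = 0.0679), with no filter (1.38, 0.0624), quantile normalization (1.22, 0.0632), equal sums per library, taken without mitochondrial and hemoglobin genes (1.10, 0.0656), and the erythroid score (0.95, 0.66), and the range over all alternatives was 0.0163 to 0.927. Within set A the difference was 0.46 (exact permutation test p = 0.733) and within set B 1.80 (exact permutation test p = 0.048, limma adjusted p = 0.0565). In the libraries of the replicate block it was 0.56, with a limma adjusted p of 0.27 with the block and 0.218 without it. With the neutrophil score as a covariate it was 0.10 (adjusted p = 0.927), but that score did not overlap between thymus (2.33 to 4.38) and WT T-ALL (5.15 to 11.86), so group and score can hardly be separated here either. Summed stroma markers (6 genes) ran from 1.15 to 2.62 scaled RPKM in thymus and from 7.42 to 192.5 in WT T-ALL, most of it Pdgfrb. Macrophage markers (8 genes) ran from 9.35 to 62.1 and from 21.55 to 373.1. Their part in the Id1 level was not tested. WT T-ALL 7 had the highest mitochondrial share of the WT T-ALL libraries (45.9%).

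Id2, the antagonist of innate lymphoid and effector T cells, ran from 4.32 to 5.15 in thymus (median 4.78) and from 4.13 to 6.80 in WT T-ALL (median 5.27). The WT T-ALL libraries 36 (6.80), 48 (6.46), 110 (6.42) and 202 (6.39) were highest, and 9 of 14 lay above every thymus library. The difference of 0.67 ± 0.32 had an interval of -0.00 to 1.33 and missed the threshold (limma adjusted p = 0.0882, exact permutation test p = 0.0726). Leaving out WT T-ALL 4, the lowest library, gave 0.77 with an adjusted p of 0.0367 (range over all alternatives 0.0367 to 0.972). Within set A the difference was 0.44 (4 against 2 libraries, exact permutation test p = 0.4) and within set B 0.73 (10 against 4, exact permutation test p = 0.134). Summed markers of NK and innate lymphoid cells (6 genes), which carry Id2, ran from 44.6 to 88.9 scaled RPKM in thymus and from 370.5 to 1829.3 in WT T-ALL, most of it Gzma, while Ncr1 and Klre1 stayed below 1 in every library of both groups. Their part in the Id2 level was not tested.

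The make-up of the Id transcripts was described by library and not tested. Id3 exceeded Id2 in 6 of 6 thymus libraries, and Id2 exceeded Id3 in 8 of 14 WT T-ALL libraries (5, 36, 48, 108, 110, 111, 128 and 202) and in 1 of 3 Notch3 KO T-ALL libraries. Of these 8, WT T-ALL 5 is of set A and the others are of set B, while every Notch3 KO T-ALL library is of set A. Id3 made up 66.1% to 81.1% of the summed Id scaled RPKM in thymus and 19.0% to 79.0% in WT T-ALL. Id1 made up at most 2.29% in thymus, and 27.6% in WT T-ALL 14, 23.1% in WT T-ALL 111 and 21.0% in WT T-ALL 110. The summed Id level was 102 ± 8.12 scaled RPKM in thymus and 104 ± 35.5 in WT T-ALL, and the summed E protein level was 187 ± 7.30 and 185 ± 43.1. The log2 ratio of the E sum to the Id sum ran from 0.64 to 1.07 in thymus (median 0.90), from -0.59 to 1.90 in WT T-ALL (median 0.71), and it was 0.39 to 1.53 for the knockout libraries (median 0.86). WT T-ALL spread to both sides of thymus, and WT T-ALL 110 was the only library in which Id transcripts outweighed E protein transcripts. These sums were not tested.

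**Figure D2:**
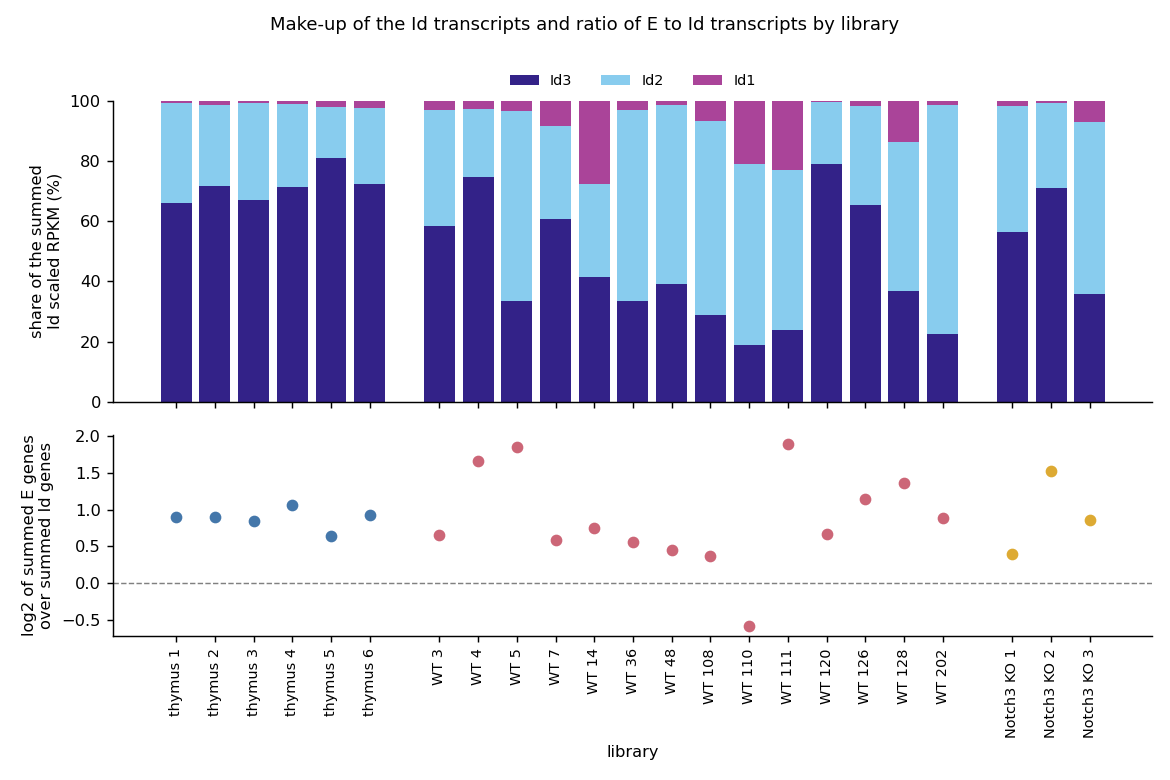
Upper panel, the share (%) of Id1, Id2 and Id3 in the summed Id scaled RPKM of each library; lower panel, log2 of the summed E protein genes over the summed Id genes. Id3 leads in each of the 6 thymus libraries and Id2 in 8 of 14 WT T-ALL libraries, while the ratio scatters from -0.59 to 1.90 in WT T-ALL around a thymus range of 0.64 to 1.07.

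Notch3 KO T-ALL was compared with the same 6 thymus libraries, so both contrasts share their controls. No member passed at a limma adjusted p under 0.05, where 37.5% of 11919 genes did (21.2% higher and 16.3% lower); 1 member (Id3) had an unadjusted p under 0.05, as had 46.3% of all genes, and 3 (Tcf12, Tcf4 and Id3) an exact permutation p under 0.05, as had 52.1%. In 2 of the 6 (Tcf4 and Id3) the samples of the groups did not overlap, as in 42.3% of all genes tested. Id3 measured 5.66, 5.43 and 4.83 in Notch3 KO T-ALL 1, 2 and 3, each below every thymus library. The difference was -0.89 ± 0.42 (limma adjusted p = 0.0981, exact permutation test p = 0.0119, the smallest that 84 splits allow). It passed with equal sums per library (-1.35, limma adjusted p = 0.014), where 4887 of 11919 genes passed. In the libraries of the replicate block it was -0.85 and passed with the block (0.0275) and without it (0.0244), as did 3630 and 3802 of 10828 genes. With the erythroid score as a covariate it was -0.14 (adjusted p = 0.955), and over all alternatives it ran from -1.35 to -0.14. In the fit with that score 218 of 11919 genes passed. The score ran from 6.14 to 8.36 in Notch3 KO T-ALL and from 0.34 to 1.81 in thymus, so group and score can hardly be separated in this comparison. Tcf4 measured 2.02, 1.79 and 2.39, also each below every thymus library. Its difference was -1.08 ± 0.61 (limma adjusted p = 0.165, exact permutation test p = 0.0119). Within set A, with 2 thymus libraries, the differences were -1.06 for Id3 and -1.33 for Tcf4 (exact permutation test p = 0.1 for each, the smallest possible).

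Tcf12 measured 5.87, 6.85 and 6.41 in Notch3 KO T-ALL 1, 2 and 3, with 2 of 3 below every thymus library. Its difference of -0.53 ± 0.32 missed the threshold (limma adjusted p = 0.195). When only these 2 groups entered the fit, which takes the spread of WT T-ALL out of the error, Id3, Tcf4 and Tcf12 passed (adjusted p = 0.00284, 0.00122 and 0.049), a share of the members close to the 48.9% of 10991 genes that passed in that fit. Tcf3 measured 5.81, 5.80 and 5.70, all inside the thymus range, with an interval of -0.62 to 0.31 for the difference. Id1 measured 1.35, 0.52 and 2.71, and Id2 5.24, 4.16 and 5.48. Id1 had 1 library above the thymus range, 1 inside and 1 below, and Id2 had 2 above and 1 below, with intervals of -1.34 to 1.96 and -0.81 to 1.12.

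Between Notch3 KO and WT T-ALL no member passed at a limma adjusted p under 0.05, where 0.617% of 11677 genes did (0.591% higher and 0.0257% lower), and none had an unadjusted limma p (8.51% of all genes) or an exact permutation p (8.33%) under 0.05. The differences were -0.15 for Tcf3 (interval -0.62 to 0.31), -0.39 for Tcf12 (-1.06 to 0.27) and -0.87 for Tcf4 (-2.17 to 0.42). They were -1.08 for Id1 (-2.78 to 0.62), -0.51 for Id2 (-1.49 to 0.47) and -0.03 for Id3 (-0.92 to 0.87). The intervals are wide with 3 knockout libraries, most of all for Id1 and Tcf4, and do not show that the groups were alike. Within set A, the only set with knockout libraries, Tcf3 differed by -0.37 and each of the 3 knockout values was under the lowest of 4 WT T-ALL values (exact permutation test p = 0.0286, the smallest possible). It was 1 of 6 members without overlap there, where 11.1% of 11677 genes had none.

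**Figure D3:**
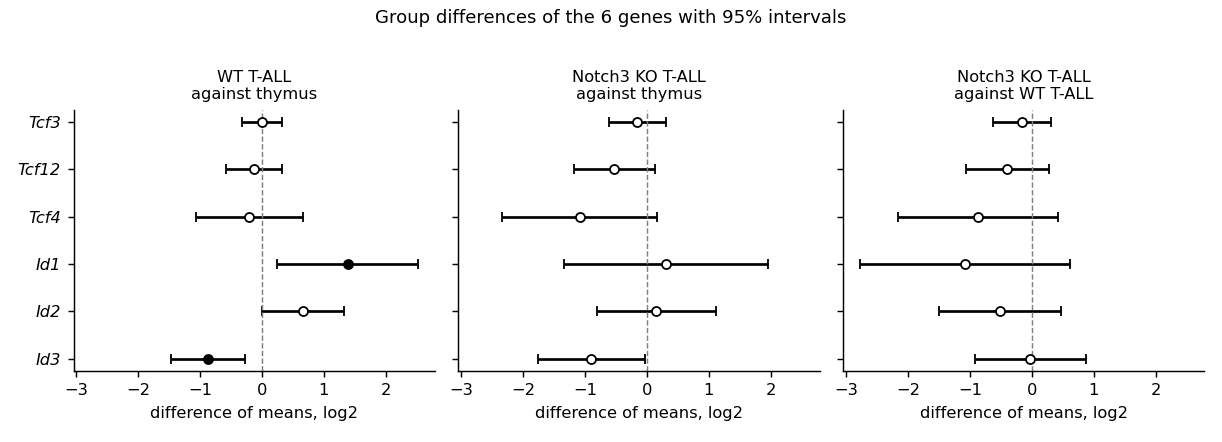
Differences of group means on the log2 scale with 95% limma intervals for the 6 genes in 3 comparisons; filled points have an adjusted p under 0.05. Id1 (1.38) and Id3 (-0.87) in WT T-ALL against thymus are the filled points, and the intervals of the comparisons with 3 knockout libraries are wider.

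Genes around the E and Id proteins were taken as 4 lists. The first, helix-loop-helix and LMO partners, holds 10 genes, of which 7 were tested between WT T-ALL and thymus; 5 rose and 1 fell, with a median difference of 1.62 against 0.08 over all genes tested, of which 29.3% rose and 22.3% fell. The study looked at Tal1, Lyl1 and Lmo2 in these same samples, so their place in the list is not independent evidence of its direction. Lmo2, the adaptor that joins TAL1 with E proteins, rose by 3.28 ± 0.32 (limma adjusted p = 4.01e-08) and Tal1 by 3.09 ± 0.37 (4.83e-07). Gata1, Lyl1 and Gata2 rose too, Ldb1, the cofactor of LMO proteins, fell by 0.88 ± 0.17 (0.000165), and Gata3 measured 0.07 (0.822). Lmo1 did not pass the filter but reached 3.42 in 1 WT T-ALL library, and the Id family member Id4 stayed at or below 0.16 in all libraries. Tal1, Gata1, Lmo2 and Gfi1b are also genes of red cell precursors, and the erythroid marker sums given above were higher in the same groups. So were 5 megakaryocyte markers, a lineage that also uses Tal1, Gata1 and Gfi1b, whose summed scaled RPKM had a median of 0.903 over the thymus libraries, with 4 of the 5 genes below 1 in every one of them, and ranged from 4.11 to 200.4 over WT T-ALL and from 61.1 to 188.0 over Notch3 KO T-ALL, and their part in these rises was not tested. Of 6 genes set against it within WT T-ALL, Lmo2 and Tal1 were related to the erythroid score (n = 14, Pearson r = 0.74 and 0.68, permutation p = 0.0029 and 0.0078, adjusted over 12 relations 0.017 and 0.031; Spearman rho = 0.70 and 0.59, permutation p = 0.0071 and 0.028, adjusted 0.085 and 0.17). Without the 2 libraries farthest in the score (5 and 7) r was 0.74 and 0.63, and within set B 0.83 and 0.76. The other 4 did not pass, with r of 0.53 for Gata1 (adjusted permutation p = 0.13), 0.44 for Gfi1b (0.20), 0.30 for Lyl1 (0.37) and 0.30 for Gata2 (0.37). Against the same thymus libraries, 4 of 7 rose in Notch3 KO T-ALL, where 21.2% of all genes rose and 16.3% fell, led by Tal1 at 5.03 ± 0.53 (2.82e-07) and Lmo2 at 4.74 ± 0.47 (1.29e-07). None of the WT T-ALL calls of this list held with the erythroid score in the fit. Of all genes, 1213 of 11919 passed in that fit, against 6150 without the score. The score did not overlap between thymus and WT T-ALL, so group and score can hardly be separated, here and in the other lists. With it Lmo2 was 1.05 (limma adjusted p = 0.166), Tal1 0.71 (0.462), Gata1 0.78 (0.448), Lyl1 0.55 (0.661), Gata2 0.28 (0.826) and Ldb1 -0.023 (0.973). With the neutrophil score the calls of Lyl1 (0.54), Gata2 (-0.091) and Ldb1 (-0.53) were lost, within set A those of Gata2 (0.83) and Ldb1 (-0.84), and with the replicate block those of Lyl1 (1.14) and Ldb1 (-0.50, also without the block). In Notch3 KO T-ALL Tal1 with the erythroid score was 1.48 (0.368) and Lmo2 1.41 (0.296), in a fit where 218 of 11919 genes passed.

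The second list holds cofactors and turnover genes of E proteins. Of 8 genes tested between WT T-ALL and thymus, 1 rose and 3 fell (median -0.33), a share close to the 51.6% called over all genes. Skp2, the ubiquitin ligase subunit that degrades E2A, rose by 1.15 ± 0.16 (6.00e-06), with every WT T-ALL library above every thymus library. Over all genes tested, 15.1% had no overlap between these groups in either direction. The acetyltransferase genes Kat2b and Ep300, whose products are coactivators of E proteins, fell by 0.67 ± 0.15 and 0.56 ± 0.18 (0.000696 and 0.013), and Cbfa2t2 fell as well. Of the same 8 in Notch3 KO T-ALL, where 21.2% of all genes rose and 16.3% fell, 2 rose, Skp2 by 1.08 ± 0.24 (0.0012) and Asb2, another ligase subunit that targets E proteins, by 0.87 ± 0.31 (0.0278). The Asb2 call was lost with quantile normalization (0.58), equal sums per library (0.61), the erythroid score (0.31, limma adjusted p = 0.842), the neutrophil score (0.36, 0.35) and the replicate block (0.74), and without thymus 5 (0.81) or Notch3 KO T-ALL 1 (0.81) or 3 (0.83). The Skp2 call was lost there with equal sums (0.64) and with the erythroid score (1.38, 0.168), while in WT T-ALL it held under all 37 alternatives. The falls of Kat2b and Ep300 in WT T-ALL lost their calls with the erythroid score (-0.66 and -0.45) and the neutrophil score (-0.34 and -0.32), within set A (-0.70 and -0.27) and in the libraries of the replicate block, with the block or without it (-0.52 and -0.47). Cbfa2t2 lost its call under the same settings (-0.27, -0.040, -0.22 and -0.28).

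The third list holds genes that E proteins activate in thymocytes. All 9 were tested between WT T-ALL and thymus; 5 fell and 2 rose (median -1.66), where 22.3% of all genes fell and 29.3% rose. Cd4 fell by 4.30 ± 0.50 (4.12e-07) and Rag1, a subunit of the recombinase, by 3.63 ± 0.67 (0.000115), from a thymus range of 9.75 to 10.70 to 3.60 to 7.84 in WT T-ALL. Rag2 and Dntt, the polymerase that adds bases at receptor joints, fell too, and for these 4 genes every WT T-ALL library lay below every thymus library, as for 15.1% of all genes in either direction. Gfi1b rose by 2.30 ± 0.37 (2.51e-05) and Notch1 by 1.87 ± 0.24 (1.58e-06). Ptcra, the pre-T-cell receptor alpha gene, which both E proteins and Notch activate, ran from 4.28 to 4.78 in thymus and from 1.37 to 6.53 in WT T-ALL (0.44, adjusted p = 0.59). Notch3 KO T-ALL had counts of 5 down and 2 up, where 16.3% of all genes fell and 21.2% rose, with Rag1 lower by -4.37 ± 0.97 (0.00125), Rag2 by -3.53 ± 1.03 (0.00977), Gfi1b higher by 3.91 ± 0.54 (9.38e-06) and Notch1 by 1.91 ± 0.35 (0.000229). The erythroid score in the fit ended the WT T-ALL calls of Cd4 (-2.31, limma adjusted p = 0.139), Rag1 (-3.79, 0.101) and Gfi1b (0.67, 0.593), and Rag1 also lost its call with the neutrophil score (-1.78) and within set A (-3.06). Rag2 in WT T-ALL lost its call with the erythroid score (-3.83, limma adjusted p = 0.112), the neutrophil score (-1.01, 0.412), within set A (-2.77, 0.185) and in the libraries of the replicate block (-1.95), and Dntt within set A (-1.34, 0.0541). That of Notch1 held under all 37 alternatives. In the knockout comparison the erythroid score ended the calls of Rag1 (-4.62), Rag2 (-5.54), Gfi1b (1.47) and Notch1 (2.57), and Rag2 also lost its call without Notch3 KO T-ALL 1 (-2.56) or 3 (-3.21), with the neutrophil score (-2.32), within set A (-3.66) and with the replicate block (-3.51). A whole thymus is mostly cells at the stage that expresses Cd4 and Rag1, and the part of the mix of thymocyte stages was not tested.

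The fourth list, genes upstream of the Id genes, had no rise. Of 12 tested between WT T-ALL and thymus, 8 fell (median -0.77), where 22.3% of all genes fell. Egr2 and Egr1, immediate early factors of receptor signaling, fell by 2.28 ± 0.32 (4.68e-06) and 1.62 ± 0.46 (0.00604), and Egr3 fell as well. Smad7, the inhibitor that TGF-beta signals induce, the receptor genes Tgfbr1 and Tgfbr2, Smad4 and Tgfb1 also fell, while Smad1 and Smad5, which carry BMP signals, did not pass. Smad7 kept its call under the 35 alternatives in which it was tested. Tgfb1 lost its call without thymus 2 (-0.41, limma adjusted p = 0.0798) or thymus 4 (-0.47, 0.0607), with the erythroid score (-0.30), within set A (-0.15) and in the libraries of the replicate block (-0.21). Smad4 and Tgfbr1 lost theirs with the erythroid score (-0.36 and -0.81), the neutrophil score (-0.40 and -0.40), within set A (-0.35 and -0.30) and in the block libraries (-0.62 and -0.70). Tgfbr2 and Egr3 lost theirs within set A (-0.59 and -1.59) and in the block libraries (-0.99 and -1.45), and Egr3 also with the erythroid score (-1.55). The BMP genes Bmp2 and Bmp4 and the receptor gene Bmpr1a were below the filter. Of the 12, 7 fell in Notch3 KO T-ALL, where 16.3% of all genes fell, with Egr2 at -2.76 ± 0.46 (8.86e-05) and Smad1 at -2.18 ± 0.56 (0.00402). The Egr2 call in WT T-ALL held under all 37 alternatives, while that of Egr1 was lost with the erythroid score (-0.94), within set A (-1.57) and in the libraries of the replicate block, with the block or without it (-0.51). Both knockout calls were lost with the erythroid score (-3.63 for Egr2 and -2.55 for Smad1). Between the T-ALL groups 0 of 35 tested genes of the 4 lists passed at a limma adjusted p under 0.05, with 7 at an unadjusted p (8.51% of all genes) and 4 at an exact permutation p under 0.05 (8.33%).

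**Figure D4:**
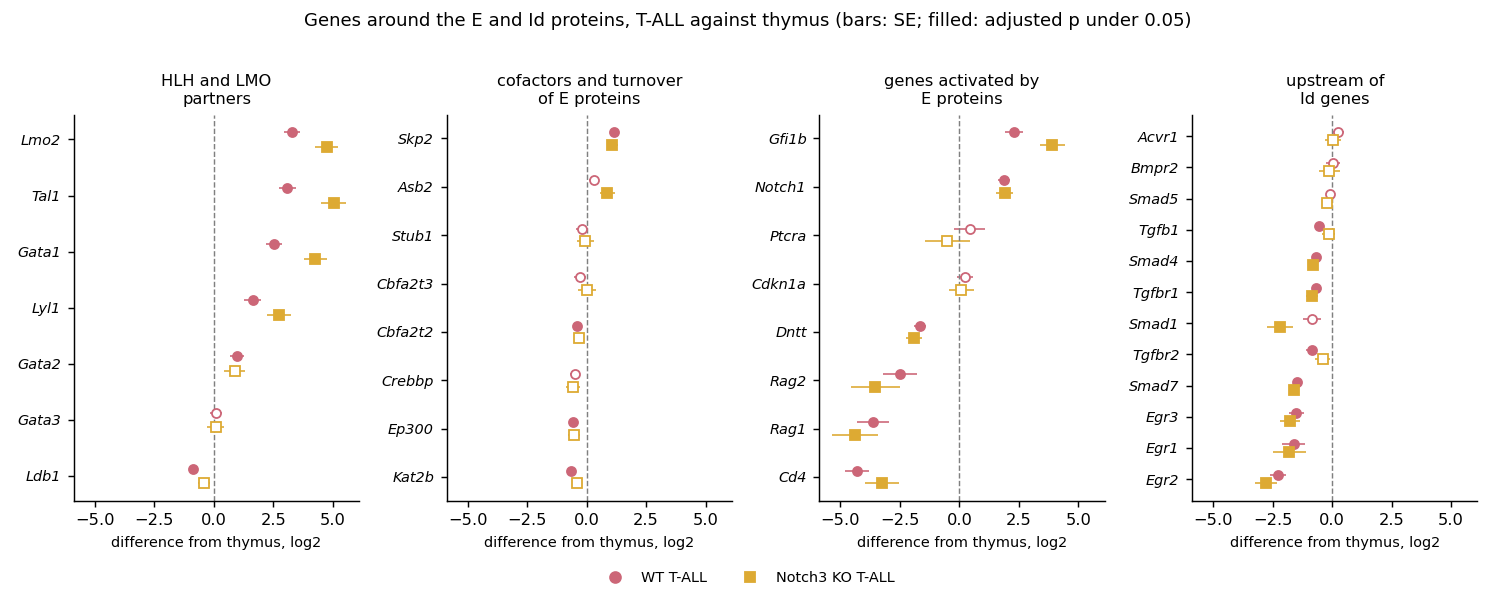
Difference from thymus (log2, bars are the SE) of WT T-ALL (circles) and Notch3 KO T-ALL (squares) for tested genes of the 4 lists; filled symbols have a limma adjusted p under 0.05. Lmo2, Tal1 and Gata1 rise furthest, Cd4, Rag1 and Rag2 lie far to the left, and the cofactor genes run from -0.67 (Kat2b) to 1.15 (Skp2) in WT T-ALL.

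Among WT T-ALL libraries the members varied to very different degrees. The SD of Id1 was 1.42, larger than that of 98.2% of the 11677 genes tested, and that of Tcf4 was 1.12 (95.8%). Id2 (0.81) and Id3 (0.77) stood at 88.9% and 86.9%, Tcf12 (0.54) at 72.0% and Tcf3 (0.37) at 39.8%, against a median SD of 0.41. No pair of members was related across the 14 libraries after adjustment over 21 relations, the 15 pairs and the 6 relations with the erythroid score, and 1 of 21 had an unadjusted permutation p under 0.05. That was Tcf3 with Id2 (Pearson r = -0.57, permutation p = 0.029, adjusted 0.528; Spearman rho = -0.57, permutation p = 0.0365, adjusted 0.767). Without WT T-ALL 110 and 126 r was -0.50, and within set B it was -0.45.

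The genes whose levels were most alike across WT T-ALL were named for each member from 7872 genes, as a description over 14 libraries that share their cell mix and scaling. For Tcf3 these were Smg5 (r = 0.91), Tdg and Dvl2, for Tcf12 Zmym2 (0.91), Mtmr2 and Lin7c, and for Tcf4 Ska1 (0.88), Mgat4b and Cisd2. For Id1 they were Syngr2 (0.85), Reep5 and Dhrs1, for Id2 Ugdh (0.86), Lmbrd1 and Vwa5a, and for Id3 Ddx31 (0.88), Hacd3 and Zpr1. In the other 9 libraries r was 0.47, 0.03 and 0.88 for Smg5, Tdg and Dvl2 with Tcf3, 0.66, 0.93 and 0.80 for Zmym2, Mtmr2 and Lin7c with Tcf12, and -0.70, -0.73 and 0.91 for Ska1, Mgat4b and Cisd2 with Tcf4. For the genes named beside the Id genes it ran from -0.22 (Zpr1 with Id3) to 0.55 (Vwa5a with Id2).

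Tcf12 fell as the neutrophil score of a WT T-ALL library rose (n = 14, Pearson r = -0.74, permutation p = 0.0021, adjusted over 12 relations 0.017; Spearman rho = -0.55, permutation p = 0.046, adjusted 0.18). Without WT T-ALL 108 and 110 r was -0.43, so the relation rests in good part on these libraries. Within set B, which holds both of them, it was -0.80. For Id1 r was 0.52 (permutation p = 0.055, adjusted 0.13; rho = 0.42, permutation p = 0.13, adjusted 0.32), 0.31 without these libraries and 0.52 within set B with them. The other members had an r between -0.46 and 0.34 with this score. The neutrophil score was chosen after the values were seen, so the adjustment over 12 relations does not cover all that was looked at. With the log2 sums of other marker lists, Tcf12 had an r of -0.57 (macrophage), -0.56 (conventional dendritic cell) and 0.54 (T cell). Tcf3 had an r of 0.73 with the endothelial sum. The part of neutrophil RNA in the levels of Tcf12 and Id1 was not tested beyond these values.

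**Figure D5:**
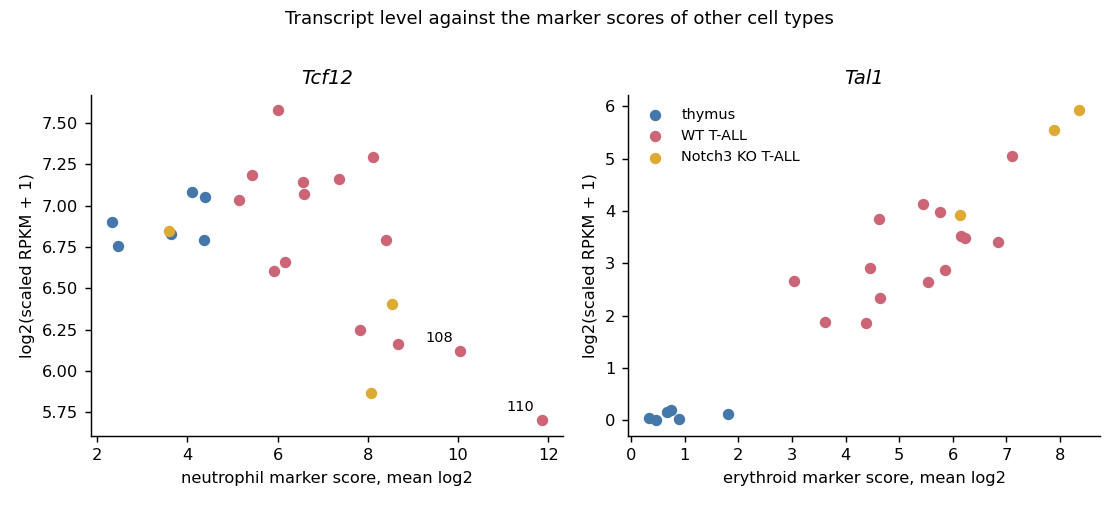
Level of Tcf12 against the neutrophil marker score (left) and of Tal1 against the erythroid marker score (right), each point 1 library and both axes in log2 units. WT T-ALL 110 and 108 have the highest neutrophil scores and Tcf12 levels of 5.70 and 6.12, and Tal1 is at most 0.20 in thymus and 1.86 to 5.05 in WT T-ALL.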

How the data were processed

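RNA-seq values of 23 libraries were used, in the 3 groups that the labels give. The authors used ArrayStudio, both for mapping reads by OSA to mouse transcripts (mm10) and for quantification. The deposited values were read as log2(scaled RPKM + 1) from the values themselves, since their minimum is 0 and their 75th percentile lies between 3.458 and 3.459 in every library, that of a scaled RPKM of 10.0. The step from reads to this scale is not given in the sources used here. No read counts were used here. The paper gives an approximate read number per sample but not the depth of each library, so no interval for counting error is given. Whether strand was used in counting is not given in the sources used here. A spreadsheet had turned 27 symbols into dates, which were restored by gene identifier.

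A gene entered a fit when 3 or more of its libraries reached 1 scaled RPKM. The tool was limma 3.58.1 (lmFit, then eBayes with trend and robust) under R 4.3.3, with Benjamini-Hochberg adjustment over all genes kept and calls at an adjusted p under 0.05. Both comparisons with thymus shared 1 fit of 3 groups, and the T-ALL groups were fitted alone. For single genes the difference in means was also put to a two-sided exact permutation test over all splits, with smallest p-values of 2.58e-05, 0.0119 and 0.00147. It was written in Python 3.11.15 with NumPy 2.4.6 and checked against SciPy 1.17.1 on made-up values. Correlations used 100000 permutations. The fits and exact tests were tested on simulated data.

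The members and lists were chosen with earlier results of these data known, and the study had itself looked at Tal1, Lmo2 and Lyl1 in these samples. All 6 members are named, and of each list every gene may be named, with values for up to 2 rises and 2 falls with the largest differences among the genes called. The 3 most alike genes were sought among genes whose WT T-ALL mean reached 5 scaled RPKM, leaving out members, predicted genes and those of T-cell receptors, immunoglobulins, hemoglobins or ribosomal proteins. Relations with marker scores in the family of 12, and the library sets, were chosen after the values were seen. A marker score is the mean log2 value of its list. Each label number is 1 mouse, and p-values measure the spread between mice. Alternatives were other filters, an offset of 0.1, other scalings (quantile, and equal sums over the genes other than 37 mitochondrial and 10 hemoglobin genes), covariates, left-out libraries and a replicate block. A gene of the lists and some markers enter the counts and sums but are not reported here by name.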

Additional observations from a re-analysis of the deposited data

How the results depend on the processing

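The direction of Id3 and Id1 in WT T-ALL against thymus held under all 37 alternatives run. Id3 kept its call in 31 of them and Id1 in 18. The count of 2 members called became 1 with no filter, 1 with quantile normalization, 1 without WT T-ALL 108 and 110 together, 0 with the erythroid score, 0 with the neutrophil score, and 0 within set A and 0 within set B, where fewer libraries were fitted. It ranged from 1 to 3 when each library was left out in turn. Of all genes, 6622 of 19183 passed with no filter, 5986 of 11919 with quantile normalization, 6101 of 11784 without WT T-ALL 108 and 110, and 4920 of 11512 within set B. In Notch3 KO T-ALL against thymus the count of 0 became 1 with quantile normalization, 3 with equal sums per library and 3 with the 2 groups alone, and it stayed at 0 when each library was left out. Of all genes, 4478 of 11919 passed with quantile normalization, 4887 of 11919 with equal sums and 5376 of 10991 (48.9%) with the 2 groups alone, so these member counts are to be read beside those shares. The 25 list genes called in WT T-ALL became 7 with the erythroid score, 14 with the neutrophil score and 10 within set A (24 to 26 when each library was left out). The 20 called in Notch3 KO T-ALL became 1 with the erythroid score (15 to 21). Between the T-ALL groups 0 became 2 with 3 groups in the fit and 2 without WT T-ALL 108 and 110, and ranged from 0 to 2 by left-out library (2 without WT T-ALL 108, 1 without Notch3 KO T-ALL 1). Over all genes, the 6150 calls in WT T-ALL became 1213 with the erythroid score, 3348 with the neutrophil score and 1709 within set A, and the 4475 in Notch3 KO T-ALL became 218 with the erythroid score, 2825 within set A and 2859 without Notch3 KO T-ALL 3. The 72 between the T-ALL groups became 134 with no filter, 6 with the filter at 5, 39 with the offset of 0.1, 254 with 3 groups, 17 with the erythroid score, 159 with library set as a term and 13 within set A. They became 158 without WT T-ALL 108, 157 without 108 and 110, and 205, 3 and 12 without Notch3 KO T-ALL 1, 2 and 3. The cause of these shifts was not tested.

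Equal sums, taken without mitochondrial and hemoglobin genes, moved the median of all genes from 0.08 to -0.27 (WT T-ALL) or -0.31 (knockout), and the split of calls in WT T-ALL from 3493 higher and 2657 lower to 1869 and 4618. In Notch3 KO T-ALL that split moved from 2527 and 1948 to 1273 and 3614. Tcf12 then passed at -0.55 in WT T-ALL (adjusted p = 0.0476 by limma), a size to be read beside that shift, and Id1 did not (1.10, 0.0656), so the count of 2 members was that of Id3 and Tcf12.

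Small differences that were not called changed sign. In WT T-ALL against thymus, Tcf3 was -0.12 with quantile normalization, -0.41 with equal sums and -0.064 within set B (-0.064 to 0.059 when each library was left out), Tcf12 was 0.56 with the neutrophil score and 0.00995 without WT T-ALL 108 and 110, and Id2 was -0.052 and -0.035 with the erythroid and neutrophil scores. In Notch3 KO T-ALL against thymus, Tcf3 was 0.52 and 0.066 and Tcf12 0.039 (neutrophil) with these scores. Id1 was -0.022 with equal sums, -0.34 and -0.75 with the scores and -0.17 within set A (-0.28 to 0.81 by left-out library). Id2 was -0.30 with equal sums and -0.92 and -0.42 with the scores (-0.11 to 0.56). Between the T-ALL groups the erythroid score gave 0.042 for Tcf3 and 0.23 for Id3 (-0.21 to 0.21). Of the list genes called, Gata2 in WT T-ALL turned to -0.091 with the neutrophil score.

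Replicate numbers name single mice, and the deviations of same-numbered libraries correlated at -0.04, 0.06 and -0.03 (WT T-ALL and thymus) and at -0.00, 0.13 and 0.08 (Notch3 KO T-ALL and thymus), so they were not treated as pairs. A replicate block over the 3 shared numbers gave 0 members and 12 list genes called in WT T-ALL, against 0 and 13 in the same libraries with no block. Of the 10546 genes tested there, 1942 were called with the block and 2262 without it. In Notch3 KO T-ALL 2 members (Id3 and Tcf4) were called with the block and the same 2 without it, and Id2 was -0.075 in both. Of the 10828 genes tested in that comparison, 3630 were called with the block and 3802 without it. The T-ALL groups share 1 number, so no block could be fitted there. Count-based tests were not run, since no counts were used.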
